A study of Mus musculus with 6 samples.

Results

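Chemokines of the cochlea were compared between young and aged mice. The 10 genes were taken by name from the transcript table, after each Ensembl transcript had been matched to its gene symbol in GENCODE M21 and the values of a gene's transcripts had been summed. They were Cxcl9 and Cxcl10 (interferon-induced), Ccl2, Ccl8, Ccl5 and Ccl6 (attracting monocytes and other leukocytes), and Cxcl12, Cxcl13, Cxcl14 and Cx3cl1 (homeostatic), 10 of 25823 genes in the table. RNA-sequencing was done on 3 young samples (1 month old by the labels) and 3 old samples (12 months old), and cochlear tissue from 3 mice was mixed in each sample. All mice were of the C57BL/6 strain, a model of early-onset age-related hearing loss, the labels name no transgene and no treatment, and the tissue is labelled as dissected basilar membrane. Values are FPKM, fragments scaled to transcript length and library depth, so that levels can be compared between genes.

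Chemokines are small secreted proteins that guide leukocytes through G protein-coupled receptors on the target cell. Cxcl9 and Cxcl10 are induced by interferons and act on Cxcr3 of activated T cells and NK cells. Ccl2 draws monocytes through Ccr2, mouse Ccl8 acts on Ccr8, and Ccl5 acts on Ccr1 and Ccr3. Homeostatic chemokines are made without inflammation: Cxcl12 retains Cxcr4-bearing cells, Cxcl13 draws B cells through Cxcr5, and Cx3cl1 is a membrane-bound ligand of Cx3cr1 on macrophages. The cochlea holds resident macrophages, and further leukocytes can enter it from the blood.

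The libraries were similar in depth, at an estimated 12470000 to 15670000 fragments. Hair cell markers were detected in every sample, with summed levels of 197.7 to 283.0 FPKM in young and 143.8 to 162.7 FPKM in old samples (7 genes). Several samples stood apart. Young replicate 1 had the highest sums of neutrophil markers (398.8 FPKM against 10.9 to 67.5 in the other 5 samples), of bone markers (177.7 against 11.1 to 80.1) and of B cell markers (2.85 against 0.404 to 0.553). Old replicate 2 had the highest sum of the 4 monocyte markers (42.1 FPKM), followed by young replicate 1 (19.4 FPKM), and the other 4 samples were between 1.17 and 4.65 FPKM. The log2 difference of each of the 10 chemokines is therefore also given without old replicate 2, and for ligands, receptors and signalling genes that passed the test it is said which samples ended the call when left out.

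Of the 10 chemokines, 3 were higher in old mice, 0 were lower and 7 did not pass the test (limma, adjusted p below 0.05 over 19649 genes). Cxcl13, Ccl8 and Ccl2 rose. Over all genes tested, 5.41% were called higher and 3.68% lower. In 6 of the 10 genes, Cxcl10, Ccl2, Ccl8, Ccl6, Cxcl13 and Cx3cl1, every old sample was above every young sample, which was so for 17.5% of all genes tested. All 10 passed the filter on low values, all 10 had a positive log2 difference, and the median log2 difference was 1.22, compared with 0.01 over all genes tested. Without young replicate 2, old replicate 1, old replicate 2 or old replicate 3, the number of chemokines called higher was 1 in each case (Cxcl13). The background also depended on the samples, and most on old replicate 2: over all genes, 1063 were called higher and 724 lower with all samples, and 44 and 15 without old replicate 2. Without old replicates 1 and 3 in turn, 275 and 247 were called higher and 103 and 94 lower. Without young replicates 1, 2 and 3 in turn, 540, 221 and 935 were called higher and 168, 79 and 821 lower. In these bulk samples, more cells of a type and more RNA per cell cannot be told apart.

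**Figure D1:**
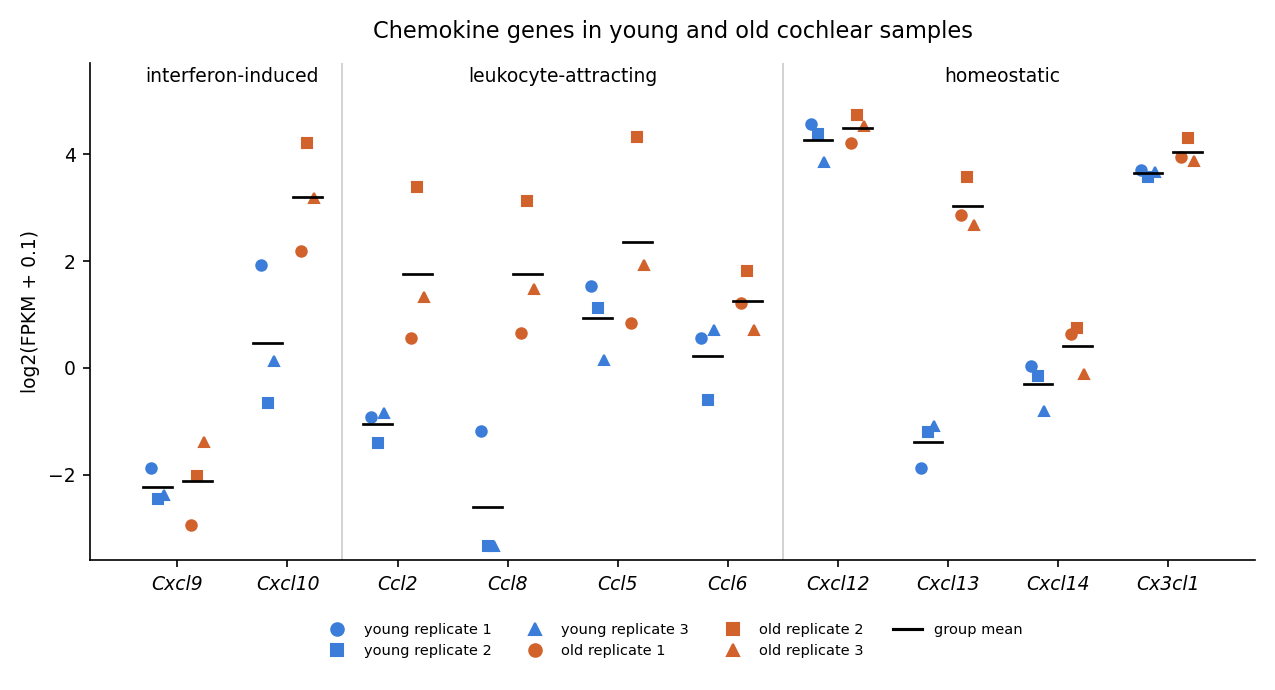
Levels of the 10 chemokine genes in the 6 samples, as log2(FPKM + 0.1) on the vertical axis. Blue symbols are the 3 young samples, orange symbols the 3 old samples, and bars the group means of the log2 values; old replicate 2 (orange squares) is the highest sample for 9 of the 10 genes.

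The levels of the 10 genes spanned a wide range. In young samples Cxcl12 was the most abundant (mean 19.6 FPKM), followed by Cx3cl1 (12.5 FPKM), and the ranges of these neighbours did not overlap. Ccl5, Cxcl10, Ccl6 and Cxcl14 came next, with means from 1.96 down to 0.734 FPKM, and each overlapped the next in this order. Ccl2 (0.389 FPKM) and Cxcl13 (0.294 FPKM) overlapped each other, were below Cxcl14 in every sample, and were above Cxcl9 (0.116 FPKM) and Ccl8 (0.114 FPKM) in mean. In old samples Cxcl12 and Cx3cl1 remained at the top (22.6 and 16.4 FPKM), Cxcl10, Ccl5, Cxcl13, Ccl2 and Ccl8 had means of 10.6, 8.44, 8.42, 4.71 and 4.28 FPKM, and Ccl6, Cxcl14 and Cxcl9 were lowest (2.39, 1.28 and 0.154 FPKM). Among old samples every neighbouring pair in this order overlapped, except Cxcl14 and Cxcl9. The summed level of all 10 genes was 46.5, 37.3 and 31.8 FPKM in the young samples and 53.6, 120.2 and 64.2 FPKM in the old samples. Cxcl12 and Cx3cl1 made up 78.6, 87.4 and 84.5% of this sum in young samples and 62.9, 38.2 and 58.5% in old samples.

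Old replicate 2 was the highest of the 6 samples for 9 of the 10 chemokines, and Cxcl9 was highest in old replicate 3. Over all genes tested, old replicate 2 was the highest sample for 15.1%. For the other chemokine ligands tested it was the highest for 6 of 19 genes. Monocyte markers were also highest in this sample, and their part in the chemokine levels was not tested.

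Cxcl13, the B cell attractant (ENSMUST00000023840, chr5:95956951-95961068, plus strand, GRCm38), had the largest log2 difference of the 10 on the scale of log2(FPKM + 0.1). Its levels were 0.175, 0.335 and 0.373 FPKM in the young samples and 7.16, 11.8 and 6.29 FPKM in the old samples. All old samples were far above all young samples. The means were 0.294 ± 0.105 FPKM in young and 8.42 ± 2.98 FPKM in old samples (SD, n = 3), a ratio of 28.6 and a log2 difference of 4.42 (SE 0.33, 95% interval 3.65 to 5.18, limma adjusted p = 0.00384). The estimated fragments behind these values were 2, 4 and 4 in young and 76.8, 161.1 and 73 in old samples, a depth-scaled ratio of 29.5 (95% exact interval 15.8 to 62.1 for counting error only). The gain in Cxcl13 did not rest on old replicate 2, since the log2 difference was 4.15 without it (limma adjusted p = 0.0180). With each of the 6 samples left out in turn, the adjusted p was between 0.00525 and 0.0278.

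The receptor of Cxcl13, Cxcr5, was close to the detection limit, with 0.194, 0.0930 and 0.275 FPKM in young and 0.273, 0.273 and 0.159 FPKM in old samples (log2 difference 0.25, limma adjusted p = 0.769). Of the 4 B cell markers, 3 were tested and 0 were called by limma, with the adjusted or the unadjusted p. The sum of all 4 was 0.404 to 2.85 FPKM in young and 0.432 to 0.553 FPKM in old samples. Summed B cell markers were thus low in the old samples, where Cxcl13 was high, and also in young replicates 2 and 3 (0.486 and 0.404 FPKM).

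Ccl2 and Ccl8 belong to the same chemokine cluster on chromosome 11, and both rose. Ccl2 (monocyte chemoattractant, ENSMUST00000000193, chr11:82035571-82037453, plus strand, GRCm38) had 0.432, 0.276 and 0.461 FPKM in young samples and 1.38, 10.3 and 2.41 FPKM in old samples. Old replicate 2 held 77.1% of the estimated Ccl2 fragments of the old group, but the remaining old samples were also above all young samples. Means were 0.389 ± 0.0997 and 4.71 ± 4.89 FPKM (SD, n = 3), with a ratio of 12.1 and a log2 difference of 2.81 (SE 0.67, limma adjusted p = 0.0442). This call was lost when any of the 6 samples was left out, with adjusted p from 0.0548 to 0.129 and log2 differences from 2.00 to 3.41. Without old replicate 2 it was 2.00 (limma adjusted p = 0.0792).

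Ccl8 (ENSMUST00000009329, chr11:82115185-82116799, plus strand, GRCm38), also named monocyte chemoattractant protein 2, had 0.342, 0 and 0 FPKM in the young group and 1.48, 8.65 and 2.69 FPKM in the old group. It was thus listed above 0 in a single young sample, and the groups did not overlap. Ccl8 rose by 4.36 on the log2 scale (SE 0.80, limma adjusted p = 0.0251). This size depends on the pseudocount added to the FPKM, at 2.01 with 1 and 6.64 with 0.01. The reason is that about 1 fragment was found in all young samples together. With 0.01 the log2 difference of Ccl8 was larger than that of Cxcl13 (4.80). The ratio of means was 37.5 for Ccl8, against 28.6 for Cxcl13. About 43 fragments were found in the old samples, of which 72.8% were in old replicate 2, and the depth-scaled ratio was 40.7 (95% exact interval 6.93 to 1646). The call was lost without young replicate 2 (limma adjusted p = 0.0784), old replicate 1 (0.0510), old replicate 2 (0.0857) or old replicate 3 (0.0693). Without old replicate 2 the log2 difference was 3.68.

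Between Ccl2 and Ccl8 lie Ccl7, Ccl11 and Ccl12, whose values were looked up for this position. Ccl7 was at 0.295, 0.282 and 0 FPKM in young and 0.944, 4.67 and 0.725 FPKM in old samples (log2 difference 2.70, limma adjusted p = 0.0816). Ccl12 was at 0.917, 0.583 and 0 FPKM in young and 2.31, 18.3 and 3.61 FPKM in old samples (log2 difference 3.74, limma adjusted p = 0.0643). Neither passed the test, and both were highest in old replicate 2, like Ccl2 and Ccl8. Ccl11, the eosinophil attractant eotaxin, rose by a smaller amount, from 4.84, 5.28 and 4.76 FPKM to 6.97, 7.49 and 8.32 FPKM (log2 difference 0.60, limma adjusted p = 0.0301), and was highest in old replicate 3.

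Ccr2, the receptor of Ccl2, Ccl7 and Ccl12 on monocytes, was at 0.996, 0.347 and 0.431 FPKM in young and 0.609, 3.83 and 0.613 FPKM in old samples. It was high in old replicate 2 alone and did not pass the test (log2 difference 0.98, limma adjusted p = 0.425). Of the 4 monocyte markers 0 were called by limma, with the adjusted or the unadjusted p, and Ly6c2, which marks inflammatory monocytes, was at 2.97, 0.542 and 0 FPKM in young and 1.70, 19.6 and 0.896 FPKM in old samples. Of the 12 macrophage markers 11 rose, against 5.41% of all genes tested. The sum of the 12 was 142.1 to 231.2 FPKM in young and 771.0 to 832.9 FPKM in old samples. The sums of the macrophage markers in old replicates 1, 2 and 3 were 832.9, 819.7 and 771.0 FPKM, and that of old replicate 2 was not the highest. Lyz2 alone made up 510.8, 399.6 and 440.1 FPKM of these sums. Lyz2, Adgre1 and Mrc1 were highest in old replicate 1, and the other macrophage markers were highest in old replicate 2. The part of either cell type in the chemokine levels was not tested.

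**Figure D2:**
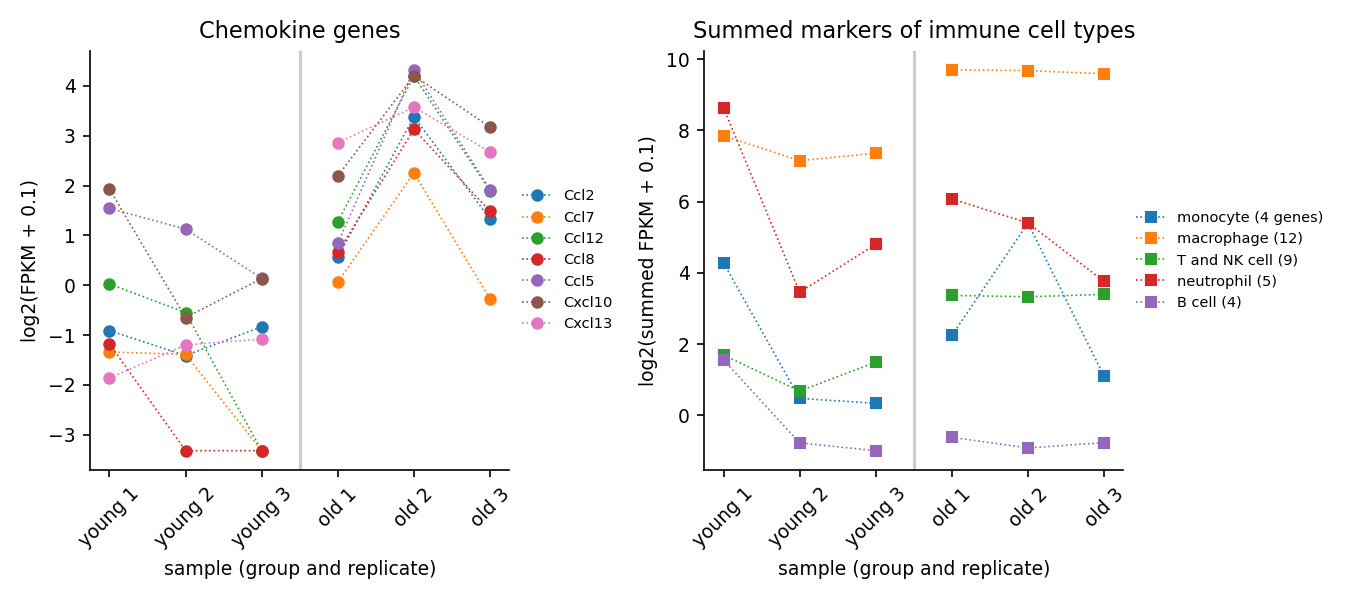
Left, 7 chemokine genes as log2(FPKM + 0.1); right, summed markers of 5 immune cell types as log2(summed FPKM + 0.1), in each of the 6 samples, with lines joining the points of a gene or list within an age group only to guide the eye. Old replicate 2 has the highest Ccl2, Ccl7, Ccl12, Ccl8 and Ccl5 levels and the highest monocyte marker sum. The macrophage and T and NK cell sums are similar in all 3 old samples, and Lyz2 is the largest part of the macrophage sum.

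Ccl5 and Ccl6 did not pass the test. Ccl5, which attracts T cells and monocytes (ENSMUST00000035938, chr11:83525778-83530518, minus strand, GRCm38), had 2.81, 2.08 and 1.00 FPKM in young samples and 1.69, 19.9 and 3.69 FPKM in old samples. Only old replicate 2 was far above the young samples, old replicate 1 was within their range, and this gene had the widest spread among old samples (8.44 ± 10.01 FPKM, against 1.96 ± 0.910 FPKM in young, SD, n = 3). The log2 difference was 1.43 (95% interval -0.52 to 3.37, limma adjusted p = 0.313), and 0.44 without old replicate 2. Of the estimated Ccl5 fragments of the old group, 82.0% came from old replicate 2.

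Ccl6, a chemokine of macrophages and other myeloid cells (ENSMUST00000019071, chr11:83587882-83593087, minus strand, GRCm38), had 1.37, 0.564 and 1.53 FPKM in young samples and 2.22, 3.41 and 1.54 FPKM in old samples. The groups did not overlap, but the lowest old and the highest young sample were almost equal, and the log2 difference of 1.02 (SE 0.43) did not pass (limma adjusted p = 0.172). Without old replicate 2 it was 0.74. Ccr1, a receptor of both, was at 1.12, 0.879 and 1.10 FPKM in young and 1.47, 1.95 and 1.34 FPKM in old samples (log2 difference 0.56, limma adjusted p = 0.194). It was not called, and Ccr3 and Ccr8, with at most 0.0756 and 0.0855 FPKM in any sample, were below the filter.

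Cxcl9 and Cxcl10 are encoded side by side on chromosome 5 and share the receptor Cxcr3, yet their levels differed widely here. Cxcl10 (transcripts ENSMUST00000038816 and ENSMUST00000118006, chr5:92346638-92348889, minus strand, GRCm38) had 3.71, 0.538 and 0.997 FPKM in young samples and 4.48, 18.4 and 8.93 FPKM in old samples. The groups did not overlap, although young replicate 1 was close to the lowest old sample. Means were 1.75 ± 1.71 and 10.6 ± 7.09 FPKM (SD, n = 3), and the ratio was 6.06. The log2 difference of 2.72 (SE 0.72, 95% interval 1.04 to 4.40) just missed the threshold (limma adjusted p = 0.0580). It passed without young replicate 1 (3.45, limma adjusted p = 0.0371) and was 2.21 without old replicate 2 (limma adjusted p = 0.168).

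Cxcl9 (ENSMUST00000113093, chr5:92321347-92328079, minus strand, GRCm38) had 0.173, 0.0832 and 0.0924 FPKM in young samples and 0.0306, 0.147 and 0.285 FPKM in old samples. Both the lowest and the highest value belonged to old samples. The log2 difference was 0.12 (SE 0.60, 95% interval -1.29 to 1.53, limma adjusted p = 0.917), and it was 0.075 without old replicate 2, -0.25 without old replicate 3 and -0.093 after quantile normalization. The values rest on 6, 3 and 3 estimated fragments in young and 1, 6 and 10 in old samples, so that a difference smaller than the interval was not detectable at this depth. Cxcr3, the shared receptor, was at 0.209, 0.10002 and 0 FPKM in young and 0.0553, 0.264 and 0.154 FPKM in old samples (log2 difference 0.41, limma adjusted p = 0.727). Of the 9 T and NK cell markers 7 were tested, and 3 (Cd3g, Cd2 and Cd4) were called higher, against 5.41% of all genes tested. Cd3d, Cd3e, Cd3g and Cd8a, with young means of 0, 0.0894, 0.0730 and 0.0657 FPKM, passed the filter only through the old samples. Sums over the 9 genes were 1.51 to 3.14 FPKM in young and 9.96 to 10.4 FPKM in old samples. Gzma was at 0 in every sample, and Cd8a did not exceed 0.331 FPKM. Klrb1c, an NK cell marker below the filter, had means of 0.0776 FPKM in young and 0.0451 FPKM in old samples.

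The promoters of Cxcl9 and Cxcl10 are shown because both genes are classical targets of interferon and NF-kB, and those of Cxcl13 and Ccl8 because these genes had the largest log2 differences. RefSeq promoters (GRCm38.p6) were found for 8 of the 10 genes. The 250 bases before the start were searched on both strands for the interferon-stimulated response element core GAAANNGAA, an NF-kB-type site GGGNNNTTC and the interferon-gamma activated site TTCNNNGAA, which reads the same on both strands. Capitals mark matches, each sequence runs 5′ to 3′ on the strand of the gene, and no matches overlap. The regions are chr5:92348890-92349139 (minus strand) for Cxcl10, chr5:92328080-92328329 (minus strand) for Cxcl9, chr5:95956689-95956938 (plus strand) for Cxcl13 and chr11:82114935-82115184 (plus strand) for Ccl8.
Cxcl10: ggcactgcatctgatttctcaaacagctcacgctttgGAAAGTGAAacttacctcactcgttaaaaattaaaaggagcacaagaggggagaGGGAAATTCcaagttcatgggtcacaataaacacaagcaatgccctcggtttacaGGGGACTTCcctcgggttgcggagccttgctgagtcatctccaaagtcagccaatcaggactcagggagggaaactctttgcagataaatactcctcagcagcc
Cxcl9: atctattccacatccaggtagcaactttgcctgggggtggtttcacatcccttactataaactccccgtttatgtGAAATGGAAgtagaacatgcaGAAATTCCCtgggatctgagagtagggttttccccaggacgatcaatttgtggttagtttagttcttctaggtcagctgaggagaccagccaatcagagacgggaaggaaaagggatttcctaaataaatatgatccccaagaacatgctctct
Cxcl13: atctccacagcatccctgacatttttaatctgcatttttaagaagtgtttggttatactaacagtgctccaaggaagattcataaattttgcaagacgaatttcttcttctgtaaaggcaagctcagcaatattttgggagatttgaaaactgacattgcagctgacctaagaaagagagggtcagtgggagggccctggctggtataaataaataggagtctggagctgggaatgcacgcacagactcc
Ccl8: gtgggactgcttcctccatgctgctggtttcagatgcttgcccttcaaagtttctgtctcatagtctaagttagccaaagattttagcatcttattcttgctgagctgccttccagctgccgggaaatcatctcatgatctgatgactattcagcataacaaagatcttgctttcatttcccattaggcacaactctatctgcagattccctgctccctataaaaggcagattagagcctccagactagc

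The interferon-stimulated core was found once in Cxcl10, 213 bases before the start, and once in Cxcl9, 175 bases before it. NF-kB-type matches lay 159 and 104 bases before the start of Cxcl10 and 154 bases before that of Cxcl9. Cxcl14 held an interferon-stimulated core 172 bases and an interferon-gamma site 191 bases before its start. None of these letters were found in the windows of Cxcl13, Ccl8, Cxcl12, Cx3cl1 and Ccl6. Among 32851 RefSeq mouse promoters of the same window, 7.13% held the interferon-stimulated core, 11.8% the NF-kB-type site and 7.02% the interferon-gamma site. Cxcl9 and Cxcl10 thus shared both kinds of match but not the level in old samples.

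Genes of interferon signalling were examined beside Cxcl9 and Cxcl10. Of 15 tested genes, 3 rose and 0 fell, against 5.41% called higher and 3.68% called lower over all genes tested. Irf7, a transcription factor of the type I interferon response, was at 8.98, 3.37 and 4.67 FPKM in young and 22.3, 94.0 and 37.3 FPKM in old samples (log2 difference 3.01, limma adjusted p = 0.0244; 2.45 and adjusted p = 0.0637 without old replicate 2). This call held in 3 of the 6 fits with a sample left out, and was lost without young replicate 2, old replicate 2 or old replicate 3 (adjusted p up to 0.0778). The order of Irf7 among old samples was that of Cxcl10, with replicate 2 highest and replicate 1 lowest. Irf9, the DNA-binding part of a complex formed after type I interferon, was at 13.9, 11.9 and 13.4 FPKM in young and 19.6, 35.6 and 30.3 FPKM in old samples (log2 difference 1.08, limma adjusted p = 0.0268; 0.90 and adjusted p = 0.0865 without old replicate 2). It held in 2 of these 6 fits, and was lost without young replicates 1 or 2 and old replicates 2 or 3 (adjusted p up to 0.0880). Ifngr1, a receptor chain for interferon gamma, rose by 0.35 on the log2 scale (limma adjusted p = 0.0358), a call that was lost with any sample left out (adjusted p from 0.0581 to 0.113). Ifng itself, the gene of interferon gamma, was at 0 in all 6 samples.

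Among 10 tested genes of the inflammatory inducers and NF-kB, 2 rose and 0 fell, against 5.41% called higher and 3.68% lower over all genes tested. Il6, a cytokine of the acute response, was at 0, 0.0351 and 0.0390 FPKM in young and 0.653, 0.532 and 0.548 FPKM in old samples (log2 difference 2.45, limma adjusted p = 0.0249). With a young mean of 0.0247 FPKM, Il6 passed the filter on low values only through the old samples. The call held only without young replicate 3 and was lost with any other sample left out (adjusted p up to 0.0946, without old replicate 2). Nfkbia, the inhibitor of NF-kB that NF-kB itself induces, was at 73.2, 47.5 and 59.2 FPKM in young and 131.4, 130.0 and 106.8 FPKM in old samples (log2 difference 1.05, limma adjusted p = 0.0178). Its call was lost without old replicate 1 or old replicate 2 (adjusted p up to 0.0708) and held in the other 4 fits with a sample left out. In neither gene was old replicate 2 the highest sample, in contrast to 9 of the 10 chemokines. Tnf was below the filter, with at most 0.205 FPKM in any sample. The proteases Adam10 and Adam17, which release Cx3cl1 from the membrane, and Dpp4, which trims chemokine ends, were not called (0 of 3 with limma). Adam17 alone of the 3 had an unadjusted p below the threshold (limma, 0.0154, log2 difference -0.33).

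The homeostatic chemokines other than Cxcl13 did not pass the test. Cx3cl1, or fractalkine (chr8:94772009-94782427, plus strand, GRCm38), had 13.0, 11.8 and 12.6 FPKM in young samples and 15.3, 19.5 and 14.6 FPKM in old samples. The groups did not overlap, and the young samples were tightly grouped (12.5 ± 0.610 FPKM, against 16.4 ± 2.68 FPKM in old, SD, n = 3). The log2 difference was 0.39 (SE 0.13, 95% interval 0.09 to 0.68, limma adjusted p = 0.0978), and 0.26 without old replicate 2. Its receptor Cx3cr1, carried by macrophages and microglia, was at 2.02, 1.91 and 2.68 FPKM in young and 3.796, 4.58 and 2.32 FPKM in old samples (log2 difference 0.63, limma adjusted p = 0.190).

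Cxcl14, a chemokine of epithelia (ENSMUST00000021970, chr13:56288643-56296551, minus strand, GRCm38), had 0.932, 0.799 and 0.470 FPKM in young samples and 1.45, 1.57 and 0.821 FPKM in old samples. The lowest old sample was within the young range, and the log2 difference was 0.73 (SE 0.36, 95% interval -0.12 to 1.58, limma adjusted p = 0.245), and 0.56 without old replicate 2.

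Cxcl12, the most abundant of the 10 (chr6:117168535-117181367, plus strand, GRCm38), had 23.6, 20.8 and 14.3 FPKM in young samples and 18.4, 26.4 and 23.0 FPKM in old samples. The groups overlapped, with means of 19.6 ± 4.79 and 22.6 ± 4.01 FPKM (SD, n = 3). The log2 difference was 0.22 (SE 0.21, 95% interval -0.26 to 0.71, limma adjusted p = 0.520), and 0.11 without old replicate 2. Its signalling receptor Cxcr4 was at 5.41, 3.92 and 4.55 FPKM in young and 5.55, 6.83 and 6.72 FPKM in old samples (log2 difference 0.46, limma adjusted p = 0.119). Ackr3, the atypical receptor that takes up and degrades Cxcl12, rose from 27.5, 23.6 and 30.1 FPKM to 51.2, 52.0 and 46.3 FPKM. Its log2 difference was 0.88 (SE 0.10, limma adjusted p = 0.0116), and 0.85 without old replicate 2, the only sample whose removal ended the call, where it just missed the threshold (limma adjusted p = 0.0561). The level of Ackr3 was thus above that of Cxcl12 and of Cxcr4 in each of the 6 samples.

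Cxcl12 was listed as 3 transcripts that share their first 267 coding bases and then differ. The coding ends are printed to show this difference, with 30 shared bases in lower case and the bases of each transcript's own, to the stop codon, in capitals, read from GENCODE M21 (GRCm38, plus strand). The coding parts of the last exons, of which the capitals are the end, lie at chr6:117176086-117176179 for Cxcl12-201 (ENSMUST00000073043, 119 codons), chr6:117173492-117173582 for Cxcl12-202 (ENSMUST00000112866, 89 codons) and chr6:117178583-117178598 for Cxcl12-203 (ENSMUST00000112871, 93 codons).
Cxcl12-201: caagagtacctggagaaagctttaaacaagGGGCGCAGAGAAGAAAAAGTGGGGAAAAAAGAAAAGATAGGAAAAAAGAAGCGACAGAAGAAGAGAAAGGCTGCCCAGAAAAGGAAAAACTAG
Cxcl12-202: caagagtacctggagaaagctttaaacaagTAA
Cxcl12-203: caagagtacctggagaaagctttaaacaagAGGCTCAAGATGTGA

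Cxcl12-201 has 93 bases of its own, Cxcl12-203 has 15, and Cxcl12-202 adds only the stop codon. Cxcl12-201 was at 10.7, 10.9 and 5.19 FPKM in young and 4.21, 5.91 and 6.51 FPKM in old samples (log2 difference -0.63, limma adjusted p = 0.380). Cxcl12-202 was at 10.1, 7.48 and 7.83 FPKM in young and 11.8, 15.9 and 13.2 FPKM in old samples (log2 difference 0.68, limma adjusted p = 0.104). Cxcl12-203 was at 2.84, 2.37 and 1.25 FPKM in young and 2.40, 4.64 and 3.32 FPKM in old samples (log2 difference 0.68, limma adjusted p = 0.412). Only for Cxcl12-202 did the groups not overlap, and no Cxcl12 transcript passed the test over 38764 transcripts, of which 0.748% were called. Of the 14 tested transcripts of the 10 chemokines, 1 was called, that of Cxcl13 (limma adjusted p = 0.0262).

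As a share of the Cxcl12 sum, Cxcl12-201 took 44.7 ± 8.15% in young and 24.5 ± 3.28% in old samples (SD, n = 3). Cxcl12-202 took 44.5 ± 9.58% and 60.5 ± 3.46%, and Cxcl12-203 took 10.7 ± 1.72% and 15.0 ± 2.32%. For all 3 transcripts the shares of young and old samples did not overlap. A test of shares over 27893 transcripts, added after the values were seen, gave a log2 difference of -0.85 (SE 0.19) for Cxcl12-201, which did not pass after adjustment (limma adjusted p = 0.439), and 0.19% of all tested shares were called. The last exon of Cxcl12-203 lies inside that of Cxcl12-201 (chr6:117176086-117181367), so that fragments in the common stretch were divided between both transcripts by the authors' software.

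**Figure D3:**
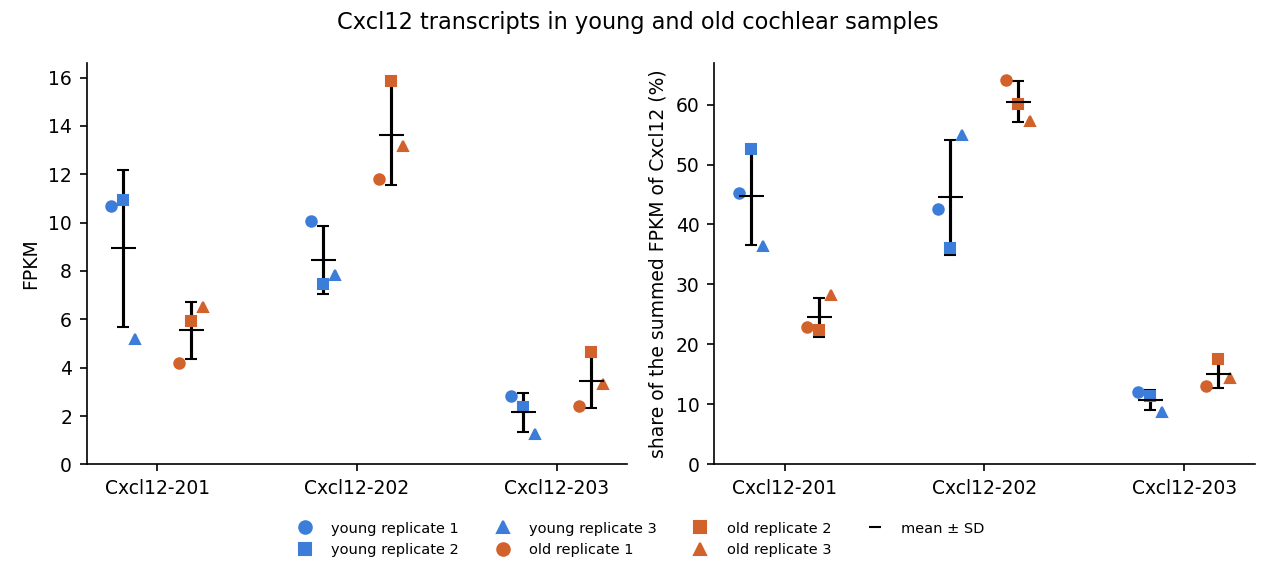
The 3 Cxcl12 transcripts in FPKM (left) and as a percentage of the summed FPKM of Cxcl12 (right); symbols are samples, blue young and orange old, and bars give the mean ± SD of 3 samples. The share of Cxcl12-201 is between 36.3 and 52.6% in young and between 22.4 and 28.3% in old samples.

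Of 27 other chemokine ligands listed, 19 were tested, 4 rose and 1 fell, and the median log2 difference was 1.24. Over all genes tested, 5.41% were called higher and 3.68% lower, and the median was 0.01. Cxcl16, the ligand of Cxcr6, was at 3.84, 2.78 and 2.79 FPKM in young and 7.85, 8.69 and 6.69 FPKM in old samples (log2 difference 1.29, limma adjusted p = 0.0137; 1.20 and adjusted p = 0.0651 without old replicate 2, the single sample whose removal ended this call). Cxcl1, a neutrophil attractant, was at 0.568, 0.217 and 0.847 FPKM in young and 2.05, 2.09 and 2.57 FPKM in old samples (log2 difference 1.99, limma adjusted p = 0.0326). Ccl17, a ligand of Ccr4, was at 0.337, 0.321 and 0 FPKM in young and 2.92, 2.20 and 2.32 FPKM in old samples (log2 difference 3.28, limma adjusted p = 0.0241). The call of Cxcl1 held only without young replicate 3. That of Ccl17 held in 2 of the 6 fits, without young replicate 1 or 3, and that of Ccl11 in 0. Without old replicate 2 the limma adjusted p was 0.106 for Cxcl1, 0.0855 for Ccl17 and 0.106 for Ccl11. In Cxcl1 and Ccl17 the old samples were close to each other, unlike in Ccl2, Ccl8 and Ccl5. The Ccl17 values rest on an estimated 1, 1 and 0 fragments in young and 7.9, 8.1 and 7 in old samples. Ccl24, an eosinophil attractant, fell from 0.821, 0.793 and 1.19 FPKM to 0.159, 0.126 and 0.265 FPKM (log2 difference -1.88, limma adjusted p = 0.0297), a call that held with 0 of the 6 samples left out (adjusted p from 0.0591 to 0.0996).

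Of 23 chemokine receptors, 17 were tested, and over all genes tested 5.41% were called higher and 3.68% lower. Of the 17 receptors, 1 rose (Ackr3) and 1 fell. The latter was Ccr6, the receptor of Ccl20, which was at 3.32, 2.02 and 2.34 FPKM in young and 0.696, 0.747 and 1.43 FPKM in old samples (log2 difference -1.36, limma adjusted p = 0.0465; lost with any sample left out, with adjusted p from 0.0523 to 0.143). Among the 10 receptors that bind the chemokines described here, Ackr3 was the only one called, and 7 of the 8 tested were not called. All 8 had a positive log2 difference, with a median of 0.60. Of all 19649 genes tested, 10011 had a positive difference, and their median was 0.01. Below the filter, Ccr3 had means of 0.0252 FPKM in young and 0.0177 FPKM in old samples, and Ccr8 of 0 and 0.0528 FPKM.

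**Figure D4:**
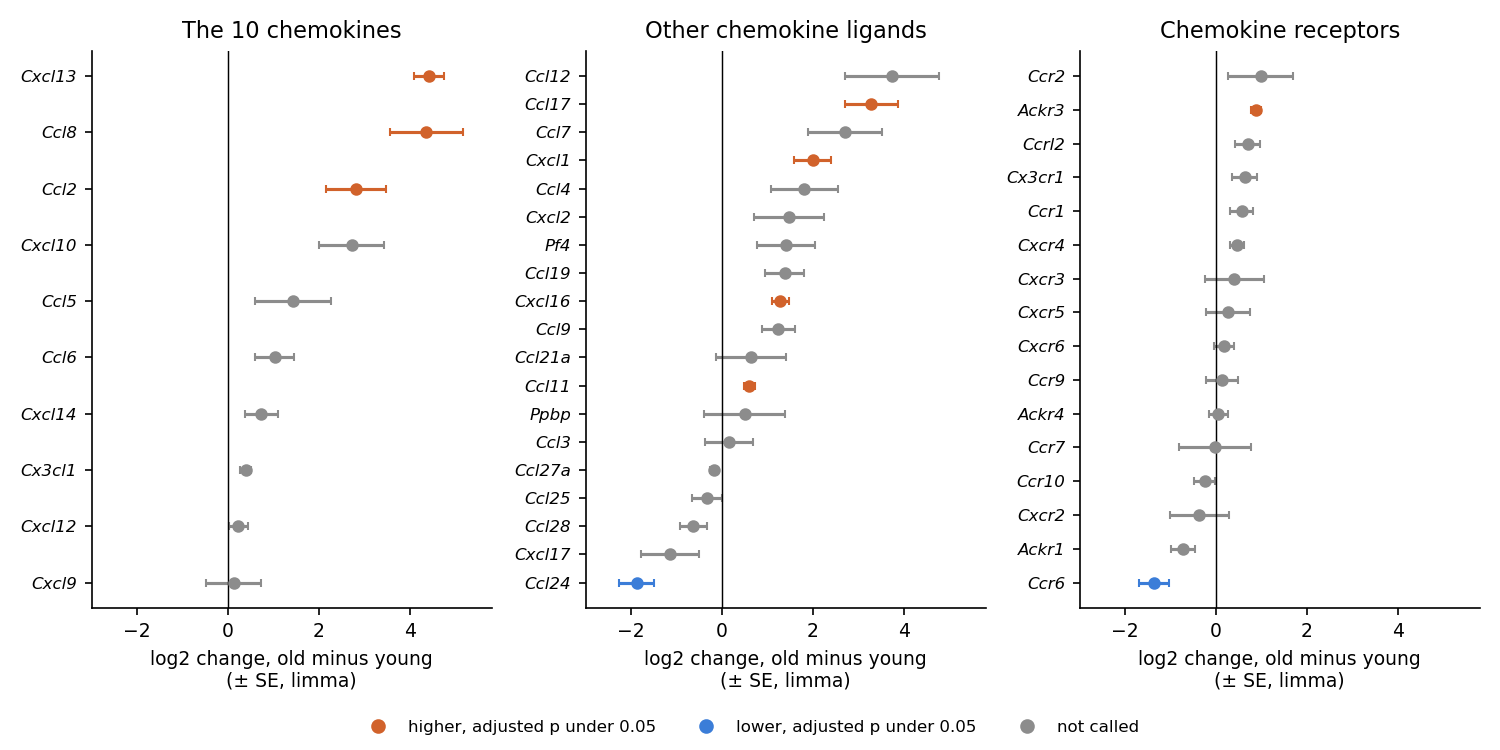
Log2 difference between old and young samples (old minus young, on log2(FPKM + 0.1)) with its standard error from limma for the 10 chemokines, 19 other chemokine ligands and the chemokine receptors reported here. Orange and blue points are called higher and lower and grey points are not called; Cxcl13 (4.42), Ccl8 (4.36) and Ccl2 (2.81) are called among the 10, and Ackr3 (0.88) and Ccr6 (-1.36) among the receptors.

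The genes whose levels over the 6 samples were most like those of a chemokine were found by Pearson's r of log2 values among 15074 genes with a mean of at least 1 FPKM. The 6 points share their libraries and fall into 2 age groups, and r is given as a description only. Ccl8 was most like Ifit3b, an interferon-induced gene (r = 0.999), which was at 12.4, 5.01 and 5.20 FPKM in young and 25.0, 69.7 and 33.1 FPKM in old samples, and next Ccdc9b (0.999). Ccl2 was most like Il18bp, the binding protein of interleukin-18 (0.996), which was at 5.65, 5.55 and 6.25 FPKM in young and 9.30, 21.1 and 11.1 FPKM in old samples, and H2-T22, a nonclassical MHC class I gene (0.996). Cxcl10 was most like Tapbpl (0.993) and Hsd3b7 (0.990). Ccl5 was most like Fcgr1, an Fc receptor of monocytes and macrophages (0.990), and C5ar1, the receptor of complement C5a (0.989).

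Cxcl13 was most like Ano6 (0.996), which was at 32.9, 34.1 and 34.1 FPKM in young and 40.8, 43.6 and 41.0 FPKM in old samples, and Bmp5, a bone morphogenetic protein (0.996). Ccl6 was most like Gmfg (0.991) and Tep1 (0.989), Cxcl14 like Tspan9 (0.997) and LNC_000870 (0.994), Cx3cl1 like Pald1 (0.998) and Tmtc4 (0.996), and Cxcl12 like Dph6 (0.993) and Myl12b (0.983). Pald1 was between 10.4 and 10.6 FPKM in young and between 10.8 and 11.4 FPKM in old samples, so that a high r went with a much smaller difference than that of Cx3cl1. Cxcl9, with a mean below 1 FPKM, was not included. The 9 chemokines compared were all highest in old replicate 2, and so were all of the genes most like them, which were picked by this likeness.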

How the data were processed

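Samples were assigned to the young and old groups from their labels. Libraries were directional and reads were paired. After alignment to GRCm38 and reference-based assembly, the authors computed the deposited FPKM of every transcript with Cuffdiff. The submitters' processing notes name CASAVA 1.8, TopHat2 2.0.9, Cufflinks 2.1.1 and Cuffdiff 2.1.1. The annotation release, the scaling between libraries and the use of strand in counting are not given in the sources used here. Of 56671 transcripts in the table, 55275 were matched to GENCODE M21, 992 carry the authors' prefix LNC_ and 404 were not matched.

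FPKM were summed per gene. Genes or transcripts with a mean of at least 0.1 FPKM were compared with limma 3.58.1 in R 4.3.3 (lmFit, eBayes with trend, two-sided) on log2(FPKM + 0.1), with age group as the only term, with Benjamini-Hochberg adjustment over all genes or all transcripts (threshold 0.05). Fold changes on this scale are understated for low genes. The test of transcript shares instead used eBayes without trend. It compared log2(transcript FPKM + 0.1) minus log2(gene sum + 0.1), for genes with several tested transcripts. Cuffdiff, the test of the study, needs reads, which were not used here. Exact permutation tests, with a smallest two-sided p of 0.1 for 3 samples against 3, gave 0.1 for the 6 chemokines whose groups did not overlap. Samples are pools of 3 mice, and p-values measure the spread between these pools.

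Fragments were estimated for transcripts of at least 500 nt from the steps between low FPKM values (92.8 to 94.5% of them within 0.1 of a whole fragment). Intervals of fragment ratios (95%) cover counting error only.

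The chemokines and the other gene lists were chosen with earlier results of these data known. Values are given for the 10 chemokines, their receptors, called genes of the other lists (at most 3 in each direction for interferon signalling and inflammatory inducers), and the 2 genes most like each chemokine by Pearson's r. Ccl7 and Ccl12, and the markers named singly, were chosen after their values were seen. Cxcl11 was not analysed here. Some genes of the lists enter the counts but their values are not reported here. The alternatives were other pseudocounts, filters, scalings and variance models, a replicate block, each sample left out, and the most abundant transcript per gene. Leaving out young replicate 1 and old replicate 2 together and the test of transcript shares were alternatives chosen after seeing the data. The code was tested on simulated data. Python 3.11.15, numpy 2.4.6, pandas 2.3.3, scipy 1.17.1 and matplotlib 3.10.9 were used for tables and plots.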

Additional observations from a re-analysis of the deposited data

How the results depend on the processing

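Cxcl13 was called higher under all 17 alternatives (limma adjusted p from 0.00338 to 0.0331), Ccl8 under 9 of 17 (0.0180 to 0.101) and Ccl2 under 4 of 17 (0.0295 to 0.1499). Cxcl10 was called under 3 (without young replicate 1, with sample weights and with the 1 FPKM filter) and Cxcl12 under 1 (its most abundant transcript, log2 difference 0.68). The sign of Cxcl9 reversed with quantile normalization (-0.093) and without old replicate 3 (-0.25), with a range of -0.25 to 0.53 over single samples left out. The other chemokines kept direction and call. The causes were not tested.

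Instead of 3 chemokines higher, 1 was found with no filter, with no variance trend, with the replicate block, and with young replicate 1 and old replicate 2 both left out. With single samples left out the count was 1 to 3. Of the other ligands, 4 were higher in the reported test, 0 with no filter, 1 with no variance trend, 2 with the replicate block, and 0 with both samples left out (0 to 3 with single samples left out). With a pseudocount of 0.01 this number was 3, and with sample weights it was 6. The 1 lower ligand became 0 with no filter, with a mean of at least 1 FPKM, with the replicate block, with both samples left out, with the most abundant transcript and with any sample left out. The 1 higher receptor became 0 without old replicate 2 and with both samples left out (0 to 1 with single samples left out). The 1 lower receptor became 0 with no filter, quantile normalization, no variance trend, the replicate block, both samples left out, the most abundant transcript and any sample left out. The 1 called transcript became 0 with no filter, the replicate block and both samples left out (0 to 1 with single samples left out).

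No pairing by replicate number was seen. The deviations of same-numbered samples from their group means had r of 0.0306, -0.0958 and 0.0388. Those of differently numbered samples had r from -0.114 to 0.0866. With 3 samples per group, this check cannot exclude a weak pairing. With the replicate block, limma adjusted p was 0.0228 for Cxcl13, 0.0596 for Ccl8 and 0.0750 for Ccl2, and the calls over all genes were 410 higher and 265 lower. Depth limits Cxcl9, Ccl17, Ccl24, Il6 and the young values of Ccl8, Ccl2 and Cxcl13, which rest on few fragments.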
